A study of Rattus norvegicus with 8 samples.

Results

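The matrix metalloproteinases (MMPs) and the tissue inhibitors of metalloproteinases (TIMPs) were examined in the lumbar L6S1 spinal cord of rats after chronic water avoidance (WA) stress. The group holds 10 genes, namely the proteases Mmp2, Mmp9, Mmp11, Mmp14, Mmp16 and Mmp24 and the inhibitors Timp1, Timp2, Timp3 and Timp4. They were found by their gene name among the probes of the array, which gave 12 of 30367 probes and 10 of 26514 gene names. The array carries 17 other Mmp genes, which are described after the members. The members were chosen with earlier results of the same contrast known, so their differences between stressed and control rats are given as a description with no p value.

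The tissue came from male Wistar rats aged 12 weeks. The WA stress group (n = 4) was placed on a small platform surrounded by water in daily sessions on 10 consecutive days, and the spinal cord was collected 24 h after the last session. The other group is labelled control (n = 4). The cord was taken by hydroextrusion, and the meninges were removed in both groups. RNA of each rat was hybridized to 1 Agilent rat array with a single dye.

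MMPs are zinc-dependent endopeptidases that cut collagens, proteoglycans, adhesion molecules and other proteins outside the cell. They are made as inactive precursors, are switched on by removal of a propeptide, and are blocked by TIMPs, which bind the active site. In the spinal cord the family is known for its part in matrix turnover, in the opening of the blood-spinal cord barrier after injury, and, for the gelatinases Mmp2 and Mmp9, in models of neuropathic pain.

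Of the 12 probes, the 6 below carry the values on which the description turns, namely the probe that passed the threshold used below, both probes of the genes measured at more than 1 place, and the probe with the highest difference. The first 30 bases of each 60-base probe are given 5′ to 3′ in lower case, with positions of the whole probe on the rn4 assembly from the authors' files. No letters are marked in capitals, and exons and UTRs were not analysed here.
Mmp11, chr20:13138152-13138211, plus strand: tgggccagtatctctcctggttaagttggc
Mmp2 3′ probe, chr19:15246221-15246280, minus strand: tttccaccacactgcatttttctcaccgaa
Mmp2 5′ probe, chr19:15246805-15246864, minus strand: aagttggagaaccaaagtctgaagagtgtg
Timp4 3′ probe, chr4:151375657-151375716, minus strand: atccttggaagagttctgaagaccaagcca
Timp4 5′ probe, chr4:151375800-151375859, minus strand: gaacggaagctctatgggtaccaggcccag
Mmp14, chr15:32503002-32503061, plus strand: taaaaagaatcttcagagtgcatatttgga

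The probes of Mmp9 (chr3:155992463-155992522), Mmp16 (chr5:32586387-32586446), Timp1 (chrX:12542700-12543703), Timp2 (chr10:108311244-108311303) and Timp3 (chr7:19679721-19679780) map to a single place each, and the files give no position for Mmp24. The Timp1 probe covers 1004 genomic bases with 60 bases of sequence. The Timp2 probe holds the letters AATAAA, as do 9.22% of all tested probes. Member probes had a GC content of 35% to 55%, against a median of 45% over all tested probes.

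A level here is the log2 processed signal of a probe minus the 75th percentile of its array, so that 0 is a bright probe of that array. A difference is the mean level in stressed rats minus that in controls, given with the standard error (SE) of the limma fit over all tested probes. Levels of different probes were not compared with each other, since the signal depends on the probe.

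All 8 arrays lay on 1 slide, with stressed rats in row 1 and controls in row 2, so row and group cannot be told apart. The array of control rat 2 stood apart from the other controls. On the first principal component it lay at 46.1, the stressed arrays at 8.23 to 34.5 and the other controls at -56.2 to -39.4. The same array also stood apart in the 5′ minus 3′ index, the median difference between 5′ and 3′ probes of 2029 transcripts. The index was 0.190 in control 2, -0.273 to -0.156 in the other controls and 0.0861 to 0.157 in stressed rats. Apart from control 2 it separated the groups, so fits with the index as a covariate rest largely on that array. Member values that rest on control 2 are therefore given with and without it. Neurons, astrocytes, oligodendrocytes and microglia, the cell types that make up a cord, had all their markers on the array tested (7 of 7, 6 of 6, 6 of 6 and 6 of 6).

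Over all 23678 tested probes, 885 (3.74%) passed a false discovery rate (FDR) of 0.1 in limma, 655 higher (2.77%) and 230 lower (0.971%) in stressed rats. The median difference of all tested probes was 0.06. With scaling to the median of each array this shift was -0.05 and the split 597 higher and 669 lower, and with quantile normalization the split was 618 higher and 634 lower. All 4 stressed rats lay below all 4 controls for 5.44% of probes and above them for 6.65%.

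Of the members, 11 probes of 9 genes were well above background on all 8 arrays and were tested, and Mmp9 was not. Mmp11 alone passed an FDR of 0.1, beside 3.74% of all probes, and no member passed 0.05. Without overlap between the groups, Mmp11 and Mmp24 were lower in stressed rats (2 of 11 probes, beside 5.44% of all) and 0 of 11 were higher (beside 6.65%). The difference was above 0 for Mmp14 and Timp3 and below 0 for 9 probes. The median difference was -0.10 over the 6 protease probes and -0.05 over the 5 inhibitor probes, beside 0.06 over all tested probes. These counts describe genes selected on the same contrast and add no evidence of their own.

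**Figure D1:**
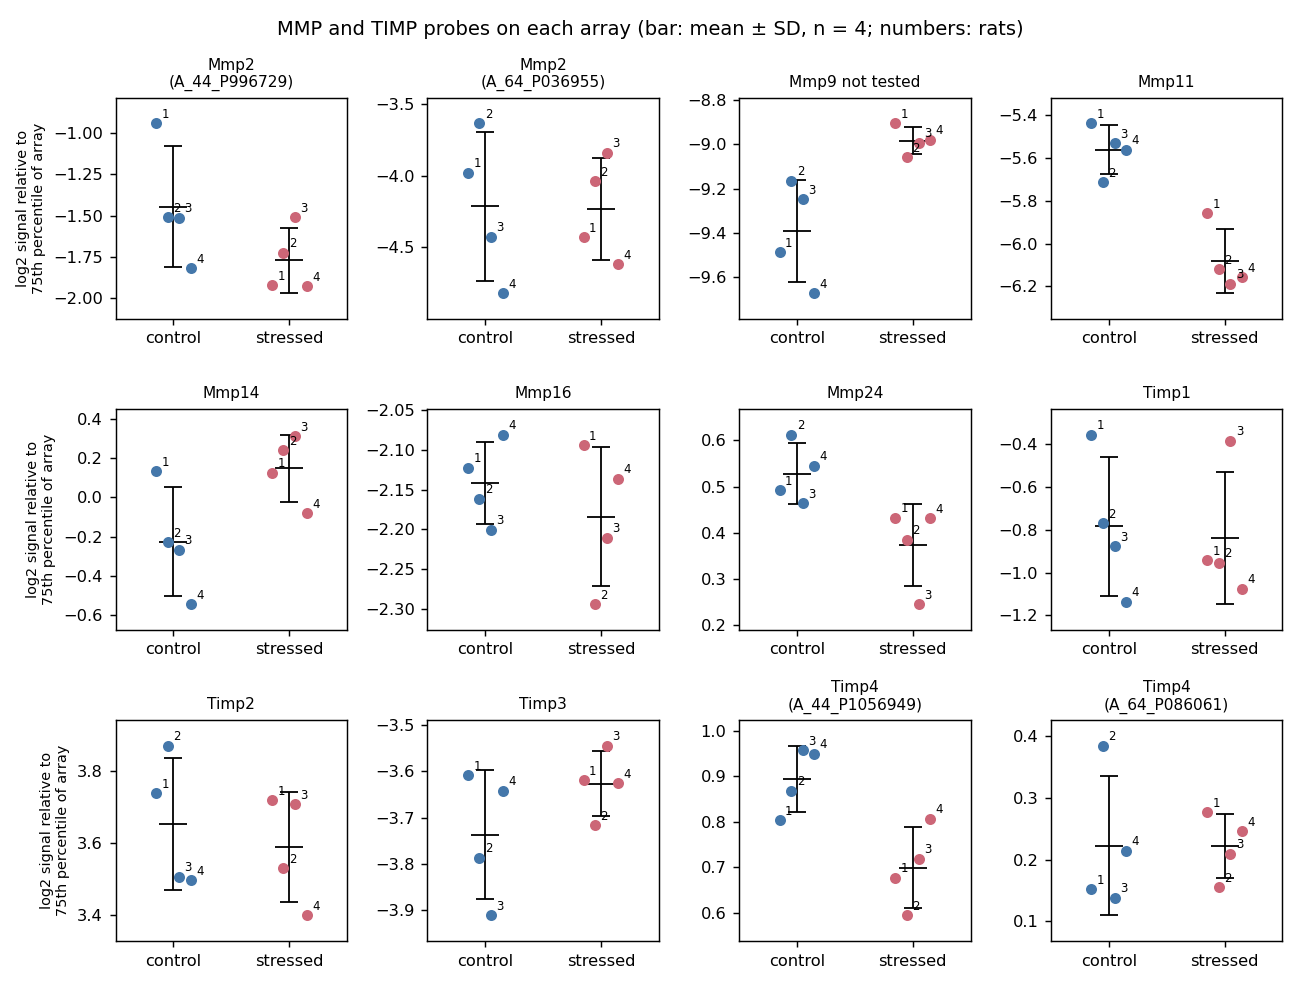
Level of each MMP and TIMP probe on each of the 8 arrays, on the log2 scale set to the 75th percentile of its array, with points for rats 1 to 4 of each group and bars for the mean ± SD (n = 4). The vertical axes differ between panels. The groups do not overlap for Mmp11, Mmp24 and Mmp9, of which Mmp9 was not above background.

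Mmp11, or stromelysin-3, is a secreted MMP that is unusual in being activated inside the cell by furin and in degrading matrix poorly. Its level was -5.44, -5.71, -5.53 and -5.56 in control rats 1 to 4. In stressed rats 1 to 4 it was -5.86, -6.12, -6.19 and -6.16. All stressed rats lay below all controls. The mean was -5.56 ± 0.114 in controls and -6.08 ± 0.151 in stressed rats (SD, n = 4 each). The difference was -0.52 (SE 0.0998), which is 69.7% of the control signal, and it was -0.57 without control rat 2.

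The Mmp11 signal was dim. The processed signal was 26.5 to 30.7 in stressed rats and 35.4 to 50.1 in controls. The local background at its spots was 33.5 to 36.5 on stressed arrays and 30 to 32 on control arrays. The part of the background in the difference was not tested. The probe has 2 spots per array, and their SD of 0.235 gives a spot SE of 0.166, which is more than the SD between arrays of 0.134. Taken singly, the spots differed by -0.55 and -0.50. Spot 1 overlapped between the groups (-6.46 to -5.59 in stressed rats, -5.90 to -5.36 in controls), and spot 2 did not (-6.13 to -5.85 and -5.57 to -5.51).

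The size of the Mmp11 difference moved with the background correction. With the normexp correction, which adds an offset of 50 to the signal, it was -0.04 and the probe was no longer called. With quantile normalization it was -0.74, and with the 5′ minus 3′ index as a covariate -0.41. Leaving out single arrays gave -0.60 to -0.48. The difference was below 0 in all 18 other settings, and Mmp11 was called in 7 of them. In several settings this sign was fixed beforehand. Other filters, the variance trend and the replicate block cannot change the difference, and the deposited table holds the same values rounded. Among the fits that left out a single array, it was called only without control rat 2, where 10036 of all 23678 tested probes were called. The other fits of this kind called only 0 to 72 of all tested probes.

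**Figure D2:**
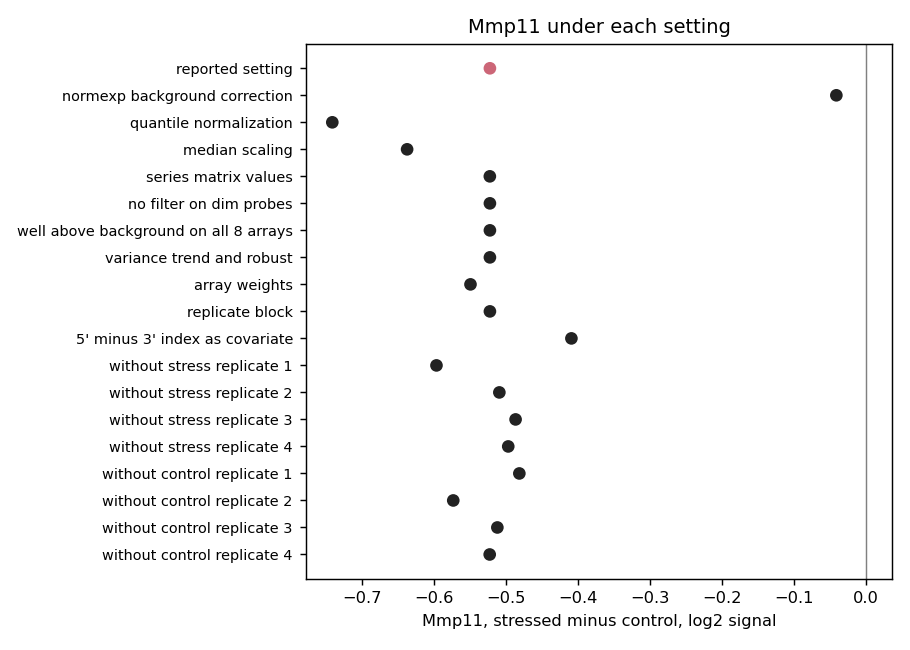
Difference of Mmp11 between stressed and control rats (log2 signal) in the reported setting (red) and in each of 18 other settings (black). All points lie below 0, from -0.74 with quantile normalization to -0.04 with normexp background correction.

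Genes were ranked by how much their pattern over the 8 arrays was like that of Mmp11. Only genes with a RefSeq symbol were ranked, and names that begin with LOC or RGD were left out. The closest were Abcc6, an ABC transporter, Cdh13, a cadherin anchored to the membrane by a lipid, and Med15, a Mediator subunit. The measure was the root mean square (RMS) distance between levels centred on their own mean. It was 0.0575 for Abcc6, 0.0689 for Cdh13 and 0.0839 for Med15, beside a median of 0.377 over all tested probes, ranked or not. Their differences were -0.46, -0.50 and -0.44. The resemblance includes the group difference by construction.

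Mmp2, or gelatinase A, cuts denatured collagen and basement membrane collagen and is made by many stromal and glial cells. Its 3′ probe was at -0.94, -1.51, -1.51 and -1.82 in control rats 1 to 4. In stressed rats 1 to 4 it was at -1.92, -1.73, -1.51 and -1.93. The groups overlapped, with 2 stressed rats below all controls, and control rat 1 was the highest of all 8. The difference was -0.33 (SE 0.191), and it was -0.16 without control rat 1.

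The 5′ probe of Mmp2 was at -3.98, -3.64, -4.43 and -4.82 in controls and at -4.43, -4.04, -3.84 and -4.62 in stressed rats. The groups overlapped, and the difference was -0.02 (SE 0.279), within the error of that of the 3′ probe. Without control rat 2 it turned to 0.18, and with the 5′ minus 3′ index as a covariate it was -0.41. Each Mmp2 probe has only 1 spot per array, so no error between spots can be given.

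Mmp9, or gelatinase B, is the gelatinase of neutrophils and of activated glia. Its 10 spots gave a processed signal of 2.88 to 4.10 and it was well above background on 0 of 8 arrays, with 1 of its spots passing on the array of control rat 3. Mmp9 was not detectable on these arrays, which does not show that it was absent. Its values were -8.91, -9.06, -8.99 and -8.98 in stressed rats and -9.49, -9.16, -9.25 and -9.67 in controls. Although the groups do not overlap, all stressed rats also lay above all controls for 41.1% of the 5066 probes that no array detected, whose median difference was 0.35. Of the neutrophil markers, Elane was not detected, 5 of 6 were tested and none was called, with Mpo at 1.36 (SE 0.841, limma adjusted p = 0.382) and Lcn2 at -0.35 (SE 0.107, limma adjusted p = 0.152).

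The membrane-type MMPs are anchored at the cell surface. Mmp14, or MT1-MMP, cuts collagen there and activates the Mmp2 precursor in a complex that contains Timp2. Its level was 0.13, -0.23, -0.27 and -0.55 in control rats 1 to 4. It was 0.13, 0.24, 0.31 and -0.08 in stressed rats 1 to 4. The groups overlapped, with 2 stressed rats above all controls. The difference of 0.38 (SE 0.153) was the highest among the tested members, and it ran from 0.26 to 0.50 over the 18 other settings. The 10 spots of this probe had an SD of 0.0697, and the SD between arrays of 0.231 was 10.5 times the spot SE.

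Mmp16, or MT3-MMP, is a membrane-type protease expressed in brain and spinal cord. Its level was -2.20 to -2.08 in controls and -2.29 to -2.09 in stressed rats, so that the groups overlapped. The difference was -0.04 (SE 0.0714).

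Mmp24, or MT5-MMP, is expressed mainly in neurons, where it cuts N-cadherin. Its level was 0.49, 0.61, 0.46 and 0.55 in control rats 1 to 4. In stressed rats 1 to 4 it was 0.43, 0.38, 0.24 and 0.43. All stressed rats lay below all controls, by a small margin. The difference was -0.16 (SE 0.0739), and it ran from -0.27 to -0.11 over the other settings.

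**Figure D3:**
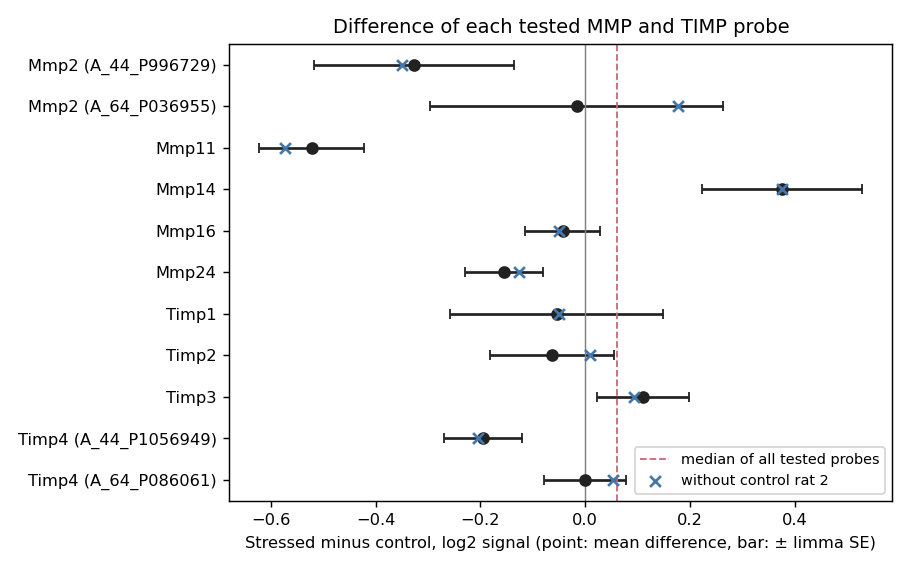
Difference between stressed and control rats (log2 signal) for the 11 tested MMP and TIMP probes, with bars for ± 1 SE from limma, crosses for the value without control rat 2 and a dashed line at the median of all tested probes (0.06). Mmp11 lies farthest below 0 at -0.52 and Mmp14 farthest above at 0.38.

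TIMPs bind MMPs in a complex of equal parts. Timp1 is the inducible member, made by astrocytes and fibroblasts among others, and it inhibits most membrane-type MMPs poorly. Its level was -0.36, -0.77, -0.88 and -1.14 in control rats 1 to 4. The stressed rats 1 to 4 had levels of -0.94, -0.96, -0.39 and -1.08. Control rat 1 and stressed rat 3 stood above the rest. The difference was -0.05 (SE 0.203) and changed sign with the array left out, from -0.21 without stressed rat 3 to 0.09 without control rat 1. The SD between arrays, 1 per rat, was 0.316, which is 19.6 times the SE of the 10 spots. Spots of an array share their RNA and labelling, so this compares array spread with spot noise alone.

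Timp2 is the constitutive TIMP of neural tissue. Its level was 3.74, 3.87, 3.51 and 3.50 in controls and 3.72, 3.53, 3.71 and 3.40 in stressed rats. The groups overlapped, and the processed signal was 20523 to 28534 with no saturated spot. The difference was -0.06 (SE 0.118). It was 0.01 without control rat 2, the highest of all 8, and -0.23 with the 5′ minus 3′ index as a covariate.

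Timp3 is bound to the matrix and also inhibits ADAM proteases. Its level was -3.91 to -3.61 in controls and -3.72 to -3.54 in stressed rats. The groups overlapped. The difference was 0.11 (SE 0.0882), but it turned to -0.09 with quantile normalization and was near 0 with scaling to the median, so no direction is given.

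Timp4 is the TIMP of heart and brain. Its 3′ probe was at 0.80, 0.87, 0.96 and 0.95 in control rats 1 to 4. In stressed rats 1 to 4 it was at 0.68, 0.59, 0.72 and 0.81. Of the stressed rats, 3 lay below all controls and stressed rat 4 lay just above control rat 1. The difference was -0.19 (SE 0.0750), and without control rat 2 it was -0.20 and the probe was called at an FDR of 0.1. That fit called 10036 of all 23678 tested probes. The 5′ probe was at 0.14 to 0.38 in controls and 0.16 to 0.28 in stressed rats, with a difference of 0.00 (SE 0.0780).

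For both Mmp2 and Timp4 the difference was thus nearer 0 at the 5′ probe than at the 3′ probe, which was not tested. The probes of Mmp2 lie 584 genomic bases apart and those of Timp4 lie 143 apart. Centred over the arrays, the 5′ minus 3′ value of Mmp2 was -0.43 to -0.30 in control rats 1, 3 and 4, 0.49 in control rat 2 and -0.07 to 0.30 in stressed rats. For Timp4 it was -0.24 to -0.08 in those controls, 0.09 in control rat 2 and 0.01 to 0.17 in stressed rats. Both genes thus set control rat 2 with the stressed rats, as does the index of all transcripts. The part of the index in the differences of the members was not tested.

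**Figure D4:**
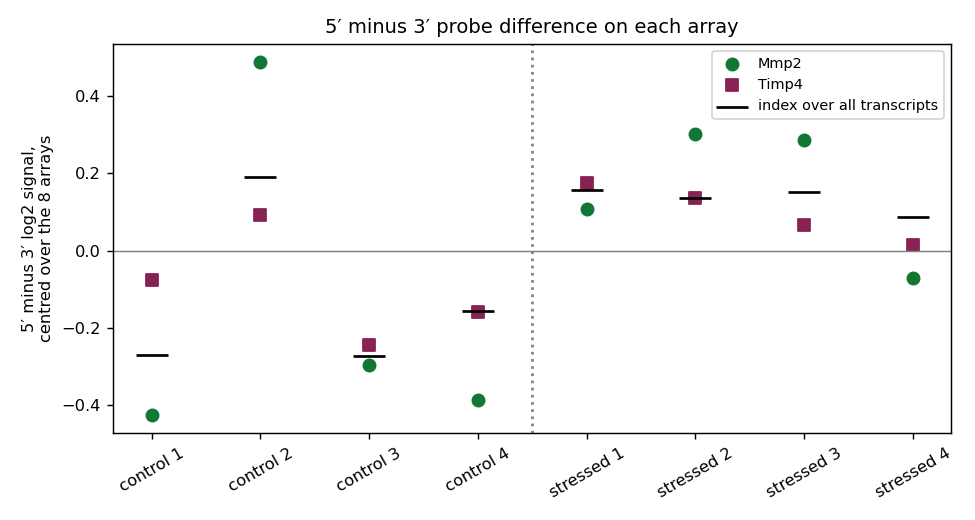
The 5′ minus 3′ log2 signal of Mmp2 (circles) and Timp4 (squares) on each array, centred over the 8 arrays, beside the index over all transcripts (bars). Control rats 1, 3 and 4 lie below 0 for both genes and for the index, and control rat 2 lies above 0.

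In whole tissue, fewer cells of a type and less RNA per cell cannot be told apart, so the levels of fibroblast and Schwann cell markers are given beside the members. Of 7 markers of meninges and fibroblasts 7 were tested and 0 were called, with a median difference of -0.38. Their mean level was -0.83, -1.94, -1.39 and -2.49 in control rats 1 to 4. It was -2.63, -2.01, -1.41 and -2.23 in stressed rats 1 to 4. Control rat 1 was the highest control and stressed rat 3 the highest stressed rat, as for Timp1, Timp3, the 3′ probe of Mmp2 and Mmp14. The other tested member probes did not share both traits. At the 5′ probe of Mmp2 control rat 2 was the highest control (-3.64, beside -3.98 in control rat 1). Stressed rat 3 was the highest stressed rat in 9 of the 10 marker lists, and control rat 1 the highest control in 2, those of fibroblasts and Schwann cells. The difference of Mmp14 (0.38) and the median of the fibroblast markers (-0.38) had opposite signs. The 4 tested Schwann cell markers, of which 0 were called, had a mean level of 1.72, 0.80, 0.45 and -1.92 in controls and -1.49, -0.21, 0.98 and -0.74 in stressed rats. Schwann cells belong to nerve roots. Of the 7 neuron, 6 astrocyte, 6 microglia, 7 fibroblast, 4 Schwann cell, 5 neutrophil and 4 red cell markers tested, 0 were called. The remaining 3 of the 10 lists had 1 called gene of 6 tested in each, all higher in stressed rats. Of all tested probes 3.74% were called, 2.77% as higher. The called markers were the myelin gene Mog at 0.90 (limma adjusted p = 0.0721), the endothelial Pecam1 at 0.40 (limma adjusted p = 0.0927) and the pericyte gene Rgs5 at 0.46 (limma adjusted p = 0.0816). The median difference was 0.28 over astrocyte, 0.20 over neuron, 0.20 over oligodendrocyte, 0.16 over endothelial and 0.08 over microglia markers. It was -0.23 over mural, -0.09 over neutrophil and -0.07 over red cell markers. Over the 4 Schwann cell markers it was -0.74, the farthest from 0 of the 10 lists, with single markers from -1.67 to 0.63. The part of these cells in the values of the members was not tested.

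**Figure D5:**
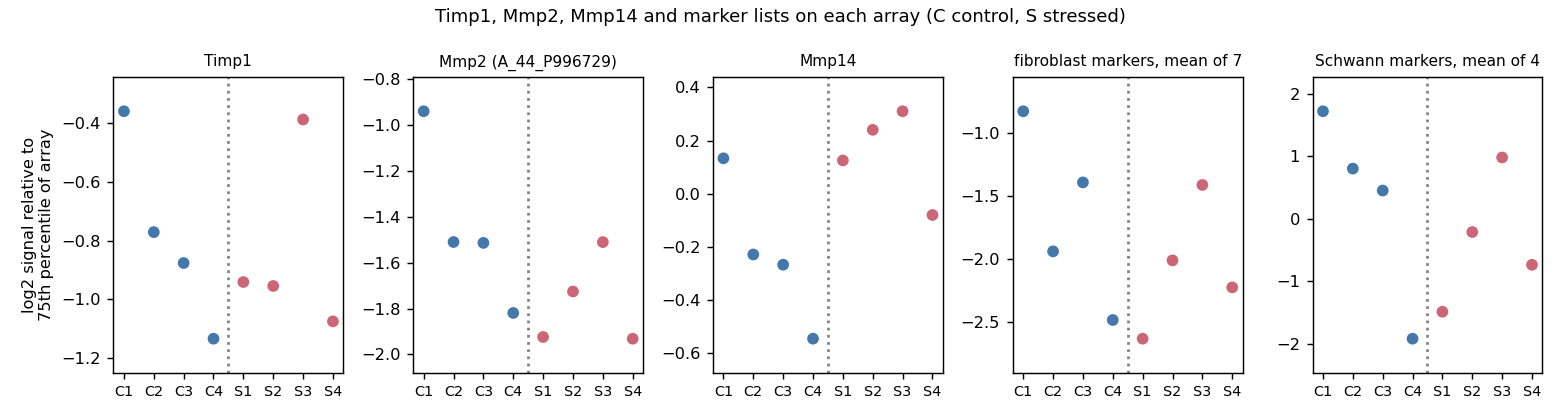
Level on each array (log2, as scaled above) of Timp1, the Mmp2 3′ probe and Mmp14, and the mean level of 7 fibroblast markers and 4 Schwann cell markers, with C for control and S for stressed rats. C1 is the highest control and S3 the highest stressed rat in every panel. The same holds for Timp3 but not for the Mmp2 5′ probe, neither of which is drawn.

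The other genes of matrix proteolysis were taken from 5 lists of 94 genes, of which 84 were on the array and 65 were tested. Adam10 rose and Adam8 fell at an FDR of 0.1 (2 of 65, beside 3.74% of all tested probes). An unadjusted limma p under 0.05 was found for 13 of 65, beside 4810 of all 23678 tested probes. Both counts were near the share over all probes. The median difference was -0.03, beside 0.06 over all tested probes. The p values that follow are from limma with Benjamini-Hochberg adjustment over all tested probes. Of all 23678 tested probes, 10036 were called without control rat 2 and 11983 with array weights. With the 5′ minus 3′ index as a covariate 2316 were called. A call in the first 2 of these fits is therefore not particular to a gene named below.

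Of the 17 other Mmp genes on the array, 8 were tested and 0 were called, with a median difference of 0.07. The 7 genes Mmp1b, Mmp7, Mmp8, Mmp12, Mmp20, Mmp21 and Mmp27 were well above background on no array, and Mmp3 and Mmp10 on a single control array each. Mmp23, which has no hemopexin domain, was at -3.62 to -2.81 in controls and -4.01 to -3.64 in stressed rats, a difference of -0.52 (SE 0.194, limma adjusted p = 0.201). It was -0.64 and called without control rat 2 (limma adjusted p = 0.0367), and -0.15 with the 5′ minus 3′ index as a covariate (limma adjusted p = 0.684). Mmp19 had a difference of -0.54 (SE 0.312, limma adjusted p = 0.352) and was well above background on 4 control arrays and on 1 stressed array, so the stressed values lie mostly near background. Its sign turned with normexp correction (0.07), and it was -0.31 without stressed rat 1 and -0.14 with the index.

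Among activators of MMPs, the convertases and the plasminogen system, 8 of 11 genes were tested and 0 were called (median -0.01). The largest differences were 0.20 for the convertase Pcsk6 (SE 0.138, limma adjusted p = 0.425) at its brighter probe and -0.18 for the kallikrein Klk6 (SE 0.127, limma adjusted p = 0.443). The dimmer probe of Pcsk6 differed by 0.71 (SE 0.299, limma adjusted p = 0.237). Without stressed rat 3 the brighter Pcsk6 probe was at 0.09, and without stressed rat 4 Klk6 was at -0.10. Array weights made Klk6 a call at -0.26 (limma adjusted p = 0.0575). Among inhibitors other than TIMPs, 7 of 9 were tested and 0 were called (median 0.01). Reck, a membrane-anchored inhibitor of several MMPs, differed by -0.28 (SE 0.177, limma adjusted p = 0.386). It was -0.44 and called without control rat 2 (limma adjusted p = 0.0363), -0.16 without control rat 1, and turned to 0.12 with the 5′ minus 3′ index as a covariate. Lrp1, a receptor that clears proteases bound to inhibitors, differed by 0.19 (SE 0.256, limma adjusted p = 0.680). It was called in opposite directions by other fits, at 0.47 without control rat 2 (limma adjusted p = 0.00414) and at -0.47 with the index (limma adjusted p = 0.0521), so no direction is given.

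The ADAM and ADAMTS genes formed the only one of the 5 lists with called genes, 1 higher and 1 lower of 20 tested (median -0.01). Of all tested probes, 2.77% were called higher and 0.971% lower. Adam10, the main alpha-secretase and a sheddase of N-cadherin, was at -0.51, -0.23, -0.37 and -0.40 in controls. In stressed rats it was at 0.24, 0.48, 0.41 and 0.07. All stressed rats lay above all controls. Adam10 rose by 0.68 (SE 0.110, limma adjusted p = 0.0506), and its other probes differed by 0.82 (limma adjusted p = 0.141) and 0.57 (limma adjusted p = 0.241). Over the other settings its adjusted p ran from 0.00134 to 0.207, and it was called in 11 of 18. The call was lost without stressed rats 1, 2 or 3 and without control rats 1, 3 or 4 (limma adjusted p = 0.144 to 0.181). Of all 23678 tested probes these fits called only 0 to 55, so the loss is not particular to Adam10.

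Adam8, a sheddase of leukocytes and microglia, was at -4.61, -4.38, -4.42 and -4.67 in controls and at -4.88, -5.04, -4.88 and -4.80 in stressed rats. All stressed rats lay below all controls. It fell by 0.38 (SE 0.0934, limma adjusted p = 0.0986). With normexp background correction the difference was -0.13 (limma adjusted p = 0.83), and Adam8 was called in 8 of 18 settings, with adjusted p down to 0.00720. Its call was lost when any single array except that of control rat 2 was left out (limma adjusted p = 0.154 to 0.284). Those fits called only 0 to 72 of all tested probes. Adamts4, an aggrecanase, differed by 0.94 (SE 0.354, limma adjusted p = 0.203) and Adam9 by 0.52 (SE 0.270, limma adjusted p = 0.313). Without control rat 2 both were called, Adamts4 at 1.27 (limma adjusted p = 0.00861) and Adam9 at 0.22 (limma adjusted p = 0.0430). With the 5′ minus 3′ index as a covariate Adamts4 was at 0.07 (limma adjusted p = 0.868) and Adam9 at 1.18 (limma adjusted p = 0.0437).

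Of the matrix and adhesion substrates, 22 of 22 on the array were tested and 0 were called (median -0.07). Tenascin-C, Tnc, was higher in all stressed rats than in all controls, with a difference of 0.70 (SE 0.208, limma adjusted p = 0.141). It was 0.84 and called without control rat 2 (limma adjusted p = 0.0180), 0.28 with normexp and 0.32 with the index. The fibrillar collagen Col3a1, which is also among the fibroblast markers, differed by -0.95 (SE 0.636, limma adjusted p = 0.415). It was -0.55 without control rat 1 and 0.03 with the index, and array weights made it a call at -1.37 (limma adjusted p = 0.0897).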

How the data were processed

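Each of 8 arrays held the L6S1 cord RNA of a single rat, 4 stressed and 4 control. The intensity values that the authors deposited are the processed signals of Agilent Feature Extraction 10.7.3.1, which per the file headers subtracts background within each array. A deposited table holds the same values rounded (503808 of 503808 equal within rounding). For the mRNA array comparison the paper names dChip with FDR thresholds of 0.1 and 0.05, and no test.

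Control spots (4259) were left out, outlier spots were set to missing, and the 75th percentile of an array was subtracted from its log2 signals, which were averaged per probe. A probe was tested when at least 0.5 of its spots were well above background, by the software's flag, on at least 4 of 8 arrays. Groups were compared with limma 3.58.1 (lmFit, eBayes) in R 4.3.3, with two-sided p values adjusted by Benjamini-Hochberg. The script was tested on simulated data. As titles number the samples and each is a separate rat in the methods, n counts rats. Precision is limited by how many arrays there are and by how far a signal lies over background.

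The members and all lists were chosen with earlier results of these data known. All members are named. From each list of other genes the text names called genes, the 2 largest differences among the rest and any gene detected in all arrays of a single group. For Mmp11 it also names the 3 closest patterns among genes with a RefSeq symbol other than LOC and RGD names. The brightest probe stands for a gene. Alternatives were the values of the deposited table, other background correction, scaling, filters, variance models, array weights, a replicate block, the 5′ minus 3′ index and leaving out each array. The match of probes to protein sequences that had been planned was not run, and miRNA arrays, PCR and pain measures were not analysed here.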

Additional observations from a re-analysis of the deposited data

How the results depend on the processing

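The difference kept its sign in all 18 other settings for Mmp11, Mmp14, Mmp16, Mmp24 and the 3′ probes of Mmp2 and Timp4. It did not for Timp1, Timp2, Timp3 and the 5′ probes. Settings with other filters, the variance trend, the replicate block or the rounded table could not turn a sign, so they do not bear on this. The number of member probes called at an FDR of 0.1, 1 as reported, was 0 with normexp correction, with a variance trend and robust estimation, with the 5′ minus 3′ index as a covariate and with a replicate block. It was 3 of 11 with array weights (Mmp11, Mmp14 and the 3′ probe of Timp4). When single arrays were left out it was 0 to 2, with 2 of 11 only without control rat 2. The number over all probes, 885 of 23678 as reported (3.74%), was 215 with normexp and 1295 with the variance trend. It was 2316 with the index and 11983 with array weights. With no filter on dim probes it was 3010 of 30357 probes. Without single arrays it was 0 to 10036, where 10036 belongs to control rat 2 and 72 is the next highest. The other matrix genes called, 2 of 65 as reported, were 1 with normexp and with the variance trend, 8 with the index and 37 with array weights. Without single arrays they were 0 to 28, with 28 of 65 for control rat 2. Array weights gave control rat 2 a weight of 0.107. The cause of these changes was not tested. With the replicate block limma called 0 probes in all, 0 members and 0 other matrix genes, with 4292 at an unadjusted p under 0.05, but the numbers do not pair the rats: deviations of same-numbered rats correlated at -0.0869 to 0.305, and 0 of 4 stressed rats correlated best with the control of their own number.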
